A study of Mus musculus with 6 samples.

Results

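Voltage-gated sodium channel genes were followed in RNA from whole embryonic hearts. The 8 genes described are Scn1a, Scn3a, Scn4a, Scn7a and Scn8a, which encode pore-forming alpha subunits, and Scn2b, Scn3b and Scn4b, which encode accessory beta subunits. They were taken by gene symbol and are 8 of the 46983 genes listed. Each library was 1 heart at E13.5 of a C57BL/6 x DBA/2 background, with 3 mutant embryos (replicates 1, 5 and 10) and 3 controls (replicates 2, 3 and 5), and each heart is called here by its replicate number. The mutants carried a Cre recombinase under the cardiac troponin T promoter together with floxed Wt1 (Tnnt2 Cre/+; Wt1 flox/flox). The controls are labelled wild type, and the methods of the study describe them as Cre-negative embryos that also carry Wt1 flox/flox, so both groups share the floxed alleles. The Tnnt2 driver recombines in the cardiomyocyte lineage and also in a part of the epicardium, and the libraries hold all the cells of the heart.

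Alpha subunits open on depolarization and carry the fast inward sodium current that starts the action potential of neurons, skeletal muscle and working myocardium. Beta subunits are single-pass membrane proteins that change the gating and the surface level of the alpha subunits and also act in cell adhesion. Each alpha gene has its own main tissue. Scn1a, Scn3a and Scn8a are known chiefly from neurons, Scn4a from skeletal muscle, and Scn7a, an atypical member that senses extracellular sodium, from glia and peripheral tissues.

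Of the 8 genes, 0 differed between mutant and control hearts at an adjusted p under 0.05. The test was edgeR's quasi-likelihood F test, with p-values adjusted by Benjamini and Hochberg's method over the 17473 genes with enough reads. It called 0% of all genes, and the smallest adjusted p of any gene was 0.0991. Of these genes, 7 of the 8 were tested and Scn1a was not, because its counts were too low. At an unadjusted p under 0.05, 0 of the 7 were called by edgeR, in either direction, where the background was 5.73%, with 2.59% of all genes lower and 3.14% higher in the mutants. DESeq2 tested all 8 and called 0 of them, at an adjusted p under 0.05 (background 0.690%) or at an unadjusted one (background 4.32%). The closest to the threshold were Scn8a and Scn4a, both lower in the mutants. Their unadjusted p were 0.0736 and 0.0749, where 5.10% of all genes were lower with an unadjusted p under 0.1. In whole hearts, fewer cells of a type and less RNA per cell cannot be told apart.

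Total counts ranged from 44244665 to 56373393 per heart. All 12 listed cardiomyocyte genes were detected, and their summed FPKM lay between 35128 and 38529 in every heart. The targeted gene Wt1 had 2251, 1891 and 879 counts in control hearts 2, 3 and 5 and 921, 1746 and 1796 in mutant hearts 1, 5 and 10, so its groups overlapped. A count over the whole gene does not separate recombined from intact alleles. A pair of control libraries stood apart. In control heart 5, long genes had low values, with a Spearman's rho of −0.556 between gene length and deviation across 11795 genes, against −0.0622 to 0.464 in the other hearts. Control heart 3 held skeletal muscle transcripts, with 325 counts of Myod1 and 130 of Pax7, where the other hearts had 5 to 31 and 0 to 5. Nothing in the labels says whether hearts came from separate litters, so p-values measure the spread between these samples.

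The genes lie in groups on the mouse genome (GENCODE M21, GRCm38). Scn3a (chromosome 2 from 65457118 to 65567627), Scn1a (66270778 to 66440840) and Scn7a (66673425 to 66784914) follow each other on the minus strand of chromosome 2. They lie 39.7, 38.9 and 38.5 Mb from Wt1. Scn2b (45117782 to 45130070) and Scn4b (45138395 to 45154152) are neighbours on the plus strand of chromosome 9 with a gap of 8325 bases, and Scn3b lies on the same chromosome from 40269217 to 40291618. Scn4a is on chromosome 11 from 106318592 to 106353288 and Scn8a on chromosome 15 from 100869858 to 101045938. All 8 are protein-coding, and 0% of their exon bases are shared with exons of another annotated gene.

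Sequence upstream of a RefSeq start is shown for both genes with the smallest p, Scn8a and Scn4a, and for both genes with the steadiest or highest levels, Scn7a and Scn2b. The sequences are from RefSeq (GRCm38.p6), 5′ to 3′ on the strand of the gene, and only bases outside any GENCODE M21 exon are given. For Scn8a and Scn4a the RefSeq start lies inside the gene as GENCODE M21 draws it, so these bases are upstream of that start and not of the whole gene. Capitals mark matches on either strand to GCGGGGGCG, the element bound by the Egr and WT1 zinc fingers, to the GC box GGGCGG, or to the E-box CANNTG. The windows are chr15:100870395-100870644 for Scn8a, chr11:106349391-106349454 for Scn4a, chr2:66784915-66785160 for Scn7a and chr9:45117626-45117781 for Scn2b.
Scn8a: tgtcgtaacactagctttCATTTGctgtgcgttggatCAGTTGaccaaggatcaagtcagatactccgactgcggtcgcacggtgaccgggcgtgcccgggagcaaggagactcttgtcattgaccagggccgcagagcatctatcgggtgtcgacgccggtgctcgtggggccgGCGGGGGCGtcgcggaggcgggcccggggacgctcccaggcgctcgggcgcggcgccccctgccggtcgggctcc
Scn4a: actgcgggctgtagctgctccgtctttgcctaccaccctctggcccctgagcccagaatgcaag
Scn7a: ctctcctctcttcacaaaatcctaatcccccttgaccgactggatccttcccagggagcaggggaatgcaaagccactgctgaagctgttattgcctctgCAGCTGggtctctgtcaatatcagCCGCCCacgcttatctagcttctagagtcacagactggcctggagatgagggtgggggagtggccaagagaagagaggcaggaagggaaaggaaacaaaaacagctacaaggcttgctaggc
Scn2b: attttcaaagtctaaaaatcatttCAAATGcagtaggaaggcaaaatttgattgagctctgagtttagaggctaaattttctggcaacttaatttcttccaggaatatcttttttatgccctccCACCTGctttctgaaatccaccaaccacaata

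RefSeq promoter windows of 300 bases were matched for 6 of the 8 genes, with 7 windows in all because Scn8a has a pair of starts. The upstream window of Scn8a held GCGGGGGCG 1 time, and the other 6 windows 0 times. Over all 32851 promoter windows of this length, 2.91% held that element, 35.7% held GGGCGG and 72.3% held CANNTG. The same Scn8a window had a GC content of 70%, against 63% in Scn4a, 54% in Scn7a and 38.3% in Scn2b, and a median of 52.7% over all windows. All 7 windows held 0 matches to the TATA element TATAAA, which 13.6% of all windows held. The window of Scn4a held 0 matches to any of the 4 elements and that of Scn2b held 3 E-boxes, of which 2 lie in the sequence shown. A match describes the letters of the window, and binding was not measured in these hearts.

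Scn8a, an alpha subunit known from nodes of Ranvier and axon initial segments, had 61, 87 and 37 counts in control hearts 2, 3 and 5. In mutant hearts 1, 5 and 10 it had 34, 47 and 27 counts. Control heart 3 was the highest heart and mutant heart 10 the lowest, and the groups overlapped. Scaled to library size, the mean level was 1.15 ± 0.340 CPM among controls and 0.696 ± 0.184 CPM among mutants (SD, n = 3 per group). Scn8a had a log2 fold change of −0.72 (SE 0.35, edgeR quasi-likelihood, adjusted p = 0.915). The 95% interval ran from 0.347-fold to 1.06-fold of the control level. The value was −0.47 without control heart 3, which also held the skeletal muscle transcripts, and −0.90 without control heart 5, with unadjusted p of 0.269 and 0.0390 from the same test. Without mutant heart 5 it was −0.95 (unadjusted p = 0.0533 in that test). Leaving out any 1 heart gave Scn8a values from −0.95 to −0.47.

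Scn4a, the alpha subunit of skeletal muscle fibres, had 53, 51 and 35 counts in control hearts 2, 3 and 5 and 34, 26 and 28 counts in mutant hearts 1, 5 and 10. After scaling, each control heart was above each mutant heart, with 0.941, 0.887 and 0.795 CPM against 0.654, 0.496 and 0.556 CPM. Of the 7 genes tested, Scn4a was the 1 whose groups did not overlap, all mutants lower, and 4.59% of all genes tested had that pattern. In the opposite direction it was 0 of the 7, against 6.61% of all genes. Its mean was 0.874 ± 0.0737 CPM in controls and 0.569 ± 0.0798 CPM in mutants (SD, n = 3 per group), which is a log2 fold change of −0.62. The SE was 0.30 and the adjusted p 0.918 (edgeR quasi-likelihood), and the 95% interval ran from 0.401-fold to 1.06-fold. Leaving out any 1 heart gave values from −0.73 to −0.54.

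As Scn4a belongs to skeletal muscle, the marker list of that tissue is given beside it. Of 16 skeletal muscle genes, 10 were tested and all 10 were lower in the mutants, with a median log2 fold change of −1.31, while 4 passed an unadjusted threshold of 0.05 in edgeR, where 2.59% of all genes did so in that direction, and 0 passed the adjusted one. Their summed FPKM was 81.8 to 164 in wild type and 59.1 to 115 in mutant hearts, and Tnnc2 was at 0 counts in all hearts. Of the 10, 8 were highest in control heart 3, as were 12.3% of all genes. Scn4a was not highest there, and its log2 fold change was −0.61 without that heart, where the summed FPKM of the list was 81.8 to 129 in the remaining controls. Tnni2 alone held 84.2 and 47.7 FPKM of that sum in control hearts 2 and 5, so the sum mostly follows 1 gene. The part of skeletal muscle RNA in the level of Scn4a was not tested.

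Scn7a was the steadiest of the genes. It had 195, 217 and 158 counts in control hearts 2, 3 and 5 and 194, 172 and 200 counts in mutant hearts 1, 5 and 10. The highest heart was 1.21 times the lowest in CPM, against 1.5 to 5.12 times in the other 7 genes. The group levels were 3.61 ± 0.156 and 3.66 ± 0.352 CPM (SD, n = 3 per group). Scn7a had a log2 fold change of 0.02 (SE 0.18, edgeR quasi-likelihood, adjusted p = 0.996), with a 95% interval of 0.766-fold to 1.34-fold. The sign of a value this near 0 turned under several settings. Scn7a is also known from Schwann cells and satellite glia, whose markers are given beside it. Of that list 12 of 12 were tested, 9 were lower and 3 higher, with a median of −0.37, and their summed FPKM was 65.2 to 77.2 in wild type and 64 to 70.4 in mutant hearts.

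**Figure D1:**
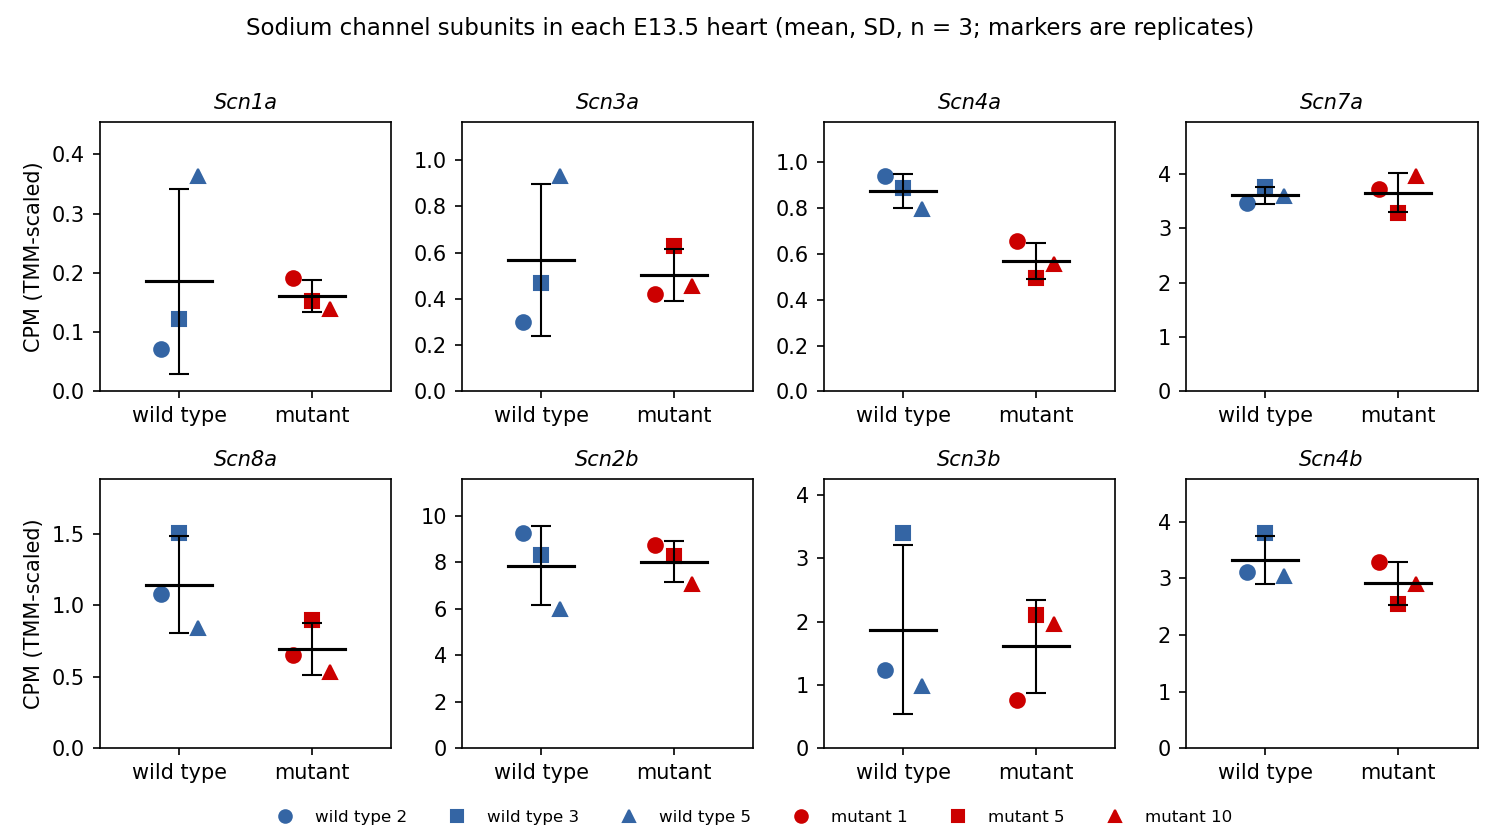
Level of each of the 8 sodium channel subunits in each heart, in CPM on a linear axis from 0 (blue, wild type; red, mutant; the bar is the mean and the whisker the SD of 3 hearts). In Scn4a all control points lie above all mutant points, while the groups overlap in the other 7 genes.

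Scn3a and Scn1a, both neuronal alpha subunits, had the lowest mean counts of the 8 genes. Scn3a, the chief form of embryonic neurons, had 17, 27 and 41 counts in control hearts 2, 3 and 5 and 22, 33 and 23 counts in mutant hearts 1, 5 and 10. Scn1a had 4, 7 and 16 counts in the same controls and 10, 8 and 7 in the same mutants. Both genes were lowest in control heart 2 and highest in control heart 5, so the controls spanned the mutants. At these counts the counting error alone is 19.2% of the mean count for Scn3a and 34% for Scn1a.

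The log2 fold change of Scn3a was −0.16 (SE 0.48, edgeR quasi-likelihood, adjusted p = 0.990), with a 95% interval from 0.420-fold to 1.91-fold. It turned to 0.38 without control heart 5. Scn1a had too few counts for the main test. With every gene kept, edgeR gave it −0.15 on the log2 scale (SE 0.75, adjusted p = 0.985), and DESeq2 gave −0.17. The value was −0.55 without control heart 2, −0.38 without control heart 3 and −0.06 without mutant heart 10.

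Markers of neurons are given beside both genes. Members of the list differed in control heart 5. Chrna3, a ganglionic acetylcholine receptor subunit, had 27 counts there and 1 to 7 elsewhere, while Tubb3 had 294 counts there and 497 to 793 elsewhere. Both were picked from the list after their values were seen. Of the 26 neuron genes listed, 23 were tested, 7 were highest in control heart 5 (30.4% of them) where 29.3% of all genes were, and Chat had 0 to 2 counts in all hearts. Their summed FPKM was 230 to 317 in wild type and 261 to 302 in mutant hearts, with 5 members higher, 18 lower and a median log2 fold change of −0.19. At an unadjusted p under 0.05 in edgeR, 1 was higher and 1 lower, where 3.14% and 2.59% of all genes were. The higher one, Prph, had the smallest p of the list. It had 35, 55 and 39 counts in control hearts 2, 3 and 5 and 78, 128 and 141 in mutant hearts 1, 5 and 10. Its log2 fold change was 1.45 (SE 0.33, edgeR quasi-likelihood, adjusted p = 0.385). The part of neuronal RNA in the levels of Scn1a and Scn3a was not tested.

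**Figure D2:**
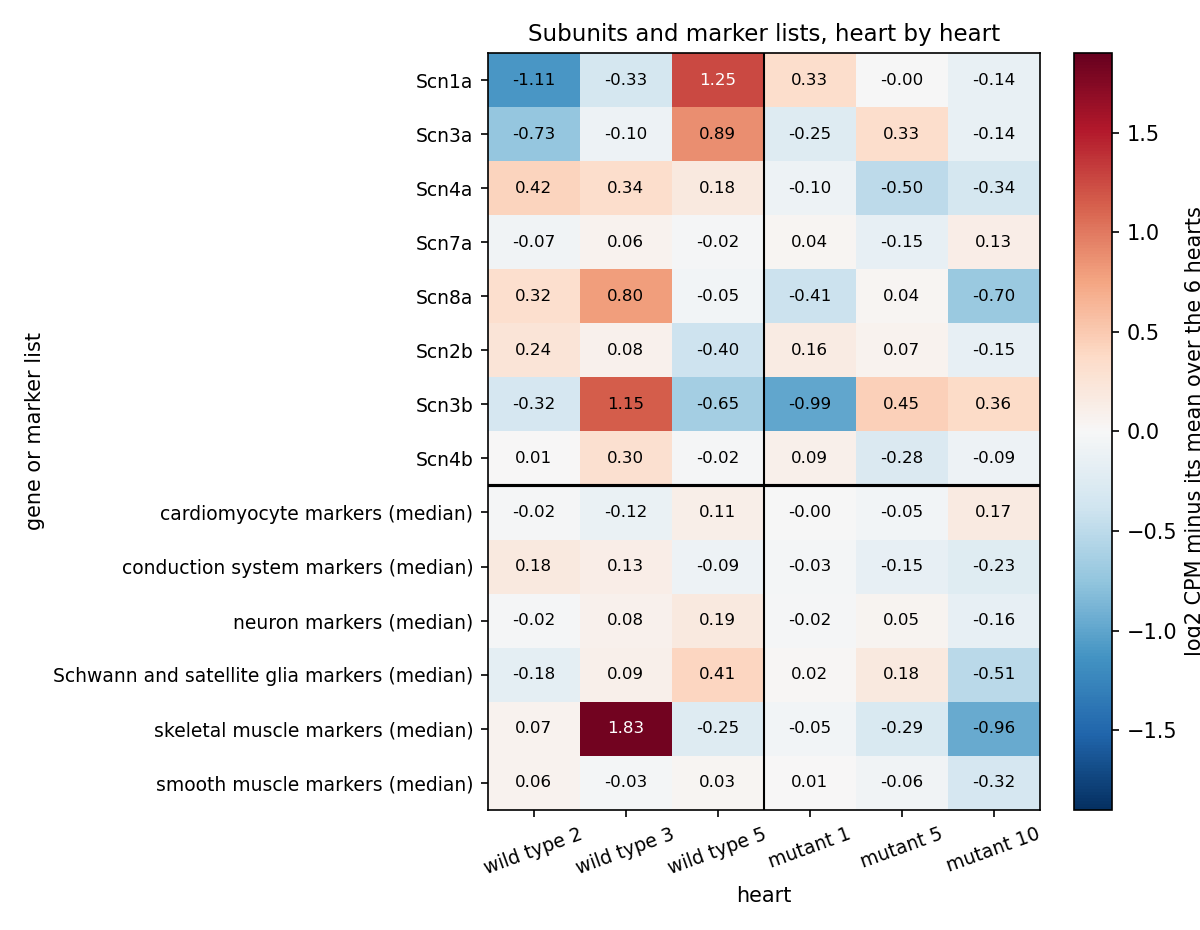
Each square is the log2 CPM of a subunit in 1 heart minus its mean over the 6 hearts, and below the line the median of the same quantity over the tested genes of each marker list. The skeletal muscle list reaches 1.83 in control heart 3, where Scn3b is at 1.15, and Scn3a peaks in control heart 5 at 0.89, as does Scn1a. In mutant hearts 5 and 10 Scn3b is at 0.45 and 0.36 and the skeletal muscle list at −0.29 and −0.96.

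Among the beta subunits, Scn2b had the most counts. This subunit is joined to the alpha subunit by a disulfide bond. It had 523, 478 and 263 counts in control hearts 2, 3 and 5 and 456, 433 and 356 counts in mutant hearts 1, 5 and 10. Control heart 5 was the lowest heart, and all mutants lay within the range of the controls. The group levels were 7.86 ± 1.70 and 8.04 ± 0.871 CPM (SD, n = 3 per group). Scn2b had a log2 fold change of 0.03 (SE 0.19, edgeR quasi-likelihood, adjusted p = 0.995), with a 95% interval of 0.755-fold to 1.38-fold, and −0.13 without control heart 5.

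Scn4b is disulfide-linked as well, and its intracellular tail can block the open pore. Its counts were 175, 219 and 134 in control hearts 2, 3 and 5 and 171, 133 and 146 in mutant hearts 1, 5 and 10. The groups overlapped at 3.32 ± 0.424 and 2.91 ± 0.376 CPM (SD, n = 3 per group). The log2 fold change of Scn4b was −0.19 (SE 0.20, edgeR quasi-likelihood, adjusted p = 0.985), with a 95% interval from 0.632-fold to 1.21-fold. It was lower in the mutants with any 1 heart left out, between −0.29 and −0.08.

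Scn3b, which associates with alpha subunits without a covalent bond, varied most among the 7 genes tested. It had 69, 196 and 43 counts in control hearts 2, 3 and 5 and 40, 110 and 99 counts in mutant hearts 1, 5 and 10. The highest heart was 4.43 times the lowest in CPM, and both groups held a high and a low heart. Group levels were 1.87 ± 1.34 and 1.61 ± 0.732 CPM (SD, n = 3 per group). Scn3b had a log2 fold change of −0.22 (SE 0.55, edgeR quasi-likelihood, adjusted p = 0.990), and the 95% interval ran from 0.360-fold to 2.05-fold. Without control heart 3, the heart with skeletal muscle transcripts, the value was 0.55, and without mutant heart 1 it was 0.12. The part of skeletal muscle RNA in the level of Scn3b was not tested.

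Over the 7 genes tested, 5 were lower and 2 higher in the mutants, and 50.2% of all genes tested were lower. Their median log2 fold change was −0.19, against −0.001 over all genes, and the median size of change was 0.19 against 0.13. Removing control heart 2 moved the median of the 7 to −0.45 and removing mutant heart 1 moved it to −0.05.

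**Figure D3:**
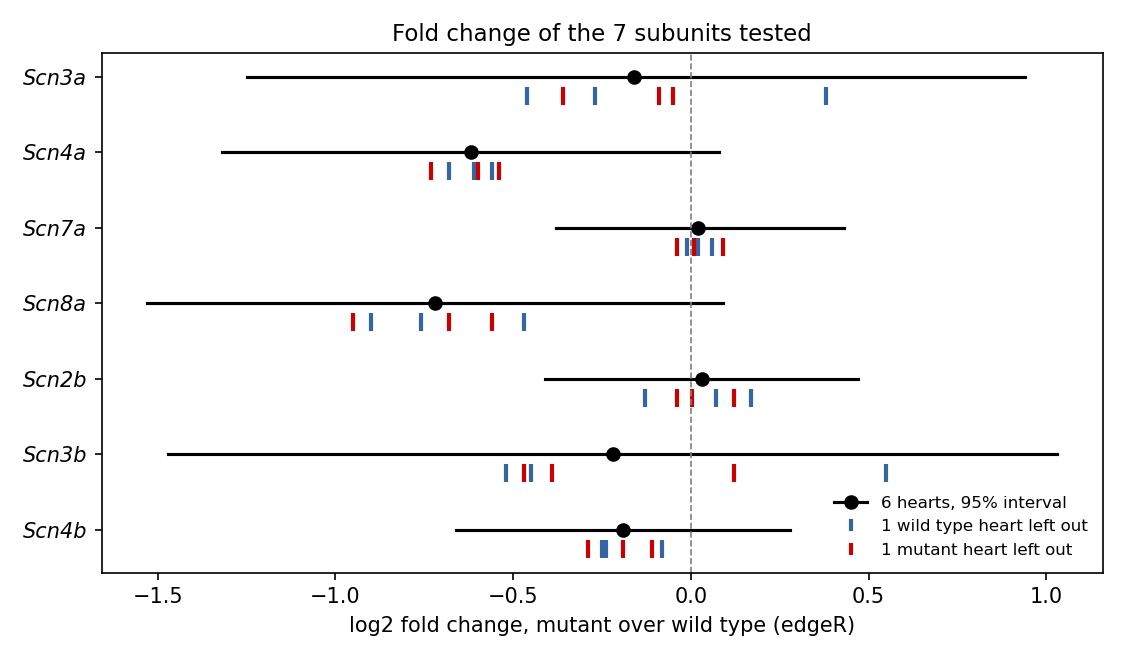
Log2 fold change of mutant over wild type for the 7 subunits tested, with the 95% interval from edgeR (black) and, below each, the value with 1 wild type (blue) or 1 mutant (red) heart left out. Every interval includes 0, and the values of Scn3a, Scn7a, Scn2b and Scn3b fall on both sides of 0 when a heart is left out.

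Levels of different genes were compared in FPKM, which is per gene length. In the deposited FPKM, averaged over the 6 hearts, the order was Scn2b (1.87), Scn3b (0.740), Scn4b (0.631), Scn7a (0.495), Scn8a (0.276), Scn4a (0.206), Scn3a (0.0973) and Scn1a (0.0333). By these means the 3 beta subunits were above the 5 alpha subunits, although Scn3b was below Scn7a in control heart 5 (0.413 against 0.487) and mutant heart 1 (0.333 against 0.518). Of the 7 neighbouring pairs in this order, 6 had the upper gene higher within each of 6 hearts (exact two-sided sign-flip permutation test, p = 0.0312 each, the smallest that 6 hearts allow, adjusted p = 0.0365). Scn3b and Scn4b did not differ beyond their spread (p = 0.875 in the same exact test). Scn3b was the higher of both in 3 of 6 hearts. The order and its pairs were drawn from the same FPKM that were tested. The p-values therefore describe how steady each step was within hearts and do not test an order set beforehand. Pairs that are not neighbours in the order were not tested.

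This order rests on the length that the authors used for each gene. The length implied by the deposited counts and FPKM is close to the mean length of the annotated transcripts. For Scn8a, with 20 transcripts of up to 11436 bases, it is 3348 bases, while its merged exons span 15766 bases, 4.71 times as many. The same ratio is 2.32 for Scn3b, 2.27 for Scn3a, 2.14 for Scn1a and 2 for Scn4a, and it is 1.09, 1.01 and 1 for Scn2b, Scn4b and Scn7a. On merged exon length, a choice made after seeing the data, Scn8a had 0.0587 and Scn4a 0.103 fragments per kilobase on the same scale, so the order of both was exchanged. Scn3b dropped to 0.319, below Scn4b (0.626) and Scn7a (0.495). Scn4a was then above Scn8a in 6 of 6 hearts (exact permutation test, p = 0.0312, adjusted p = 0.0437), while Scn8a and Scn3a did not differ beyond their spread (p = 0.312 in the same exact test). These pairs, too, were drawn from the order of the values tested. Fold changes between groups are not affected by the length used, since one length serves all hearts.

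**Figure D4:**
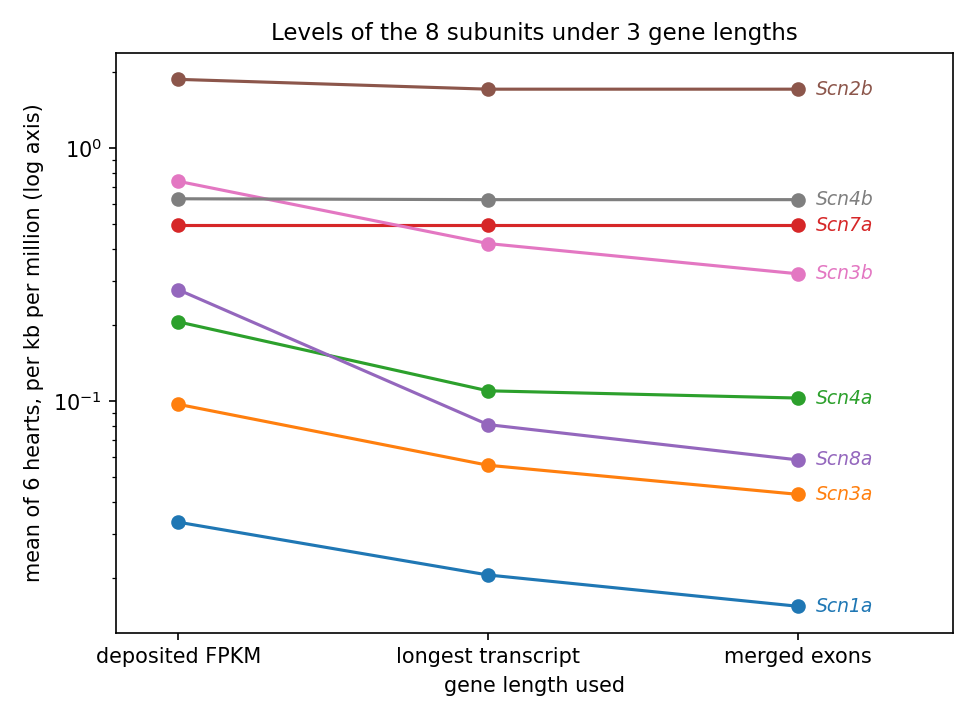
Mean level of each subunit over the 6 hearts, in FPKM on a log axis, with the length behind the deposited FPKM, the longest transcript or the merged exons. Scn8a falls from 0.276 to 0.0587 and crosses Scn4a, and Scn3b falls from 0.740 to 0.319 and crosses Scn4b and Scn7a, while Scn7a stays at 0.495.

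The balance among subunits was followed as the share of each in the summed FPKM of its class within a heart. Scn7a made up 41.7%, 38.8% and 40.6% of the 5 alpha genes in control hearts 2, 3 and 5 and 50.7%, 44.7% and 55.8% in mutant hearts 1, 5 and 10. The groups did not overlap, with means of 40.3% ± 1.49 and 50.4% ± 5.56 (SD, n = 3 per group). The exact permutation test gave p = 0.1, two-sided, the smallest that 3 hearts against 3 allow, and 0.4 adjusted over the 8 shares. The CPM of Scn7a itself overlapped between the groups, at a log2 fold change of 0.02. The shares of a class add up to the whole in each heart, so they are not independent. A higher share of Scn7a goes with lower shares of other alpha genes, here of Scn4a and Scn8a. In CPM, 11.2% of all genes tested did not overlap, in either direction, and no such background was worked out for shares or sums. The summed FPKM of the 5 alpha genes was 1.148, 1.354 and 1.199 in control and 1.022, 1.004 and 0.919 in mutant hearts, each mutant below each control.

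Scn4a held 23.6%, 19% and 18.7% in the same controls and 18.5%, 14.1% and 16.3% in the same mutants, which again did not overlap (exact permutation test, p = 0.1, adjusted p = 0.4). Scn8a held 27.8% ± 6.65 and 20.9% ± 5.29, with overlap (exact permutation test, n = 3 per group, p = 0.2). With merged exon lengths Scn7a held 65.5% ± 1.41 in wild type and 73.4% ± 3.47 in mutant hearts, and its groups still did not overlap. The 3 beta shares overlapped between groups, with Scn2b at 56.6% ± 9.38 and 59.8% ± 6.98, Scn3b at 22.5% ± 10.6 and 21.5% ± 9.34 and Scn4b at 20.9% ± 3.83 and 18.7% ± 3.24 (SD, n = 3 per group).

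**Figure D5:**
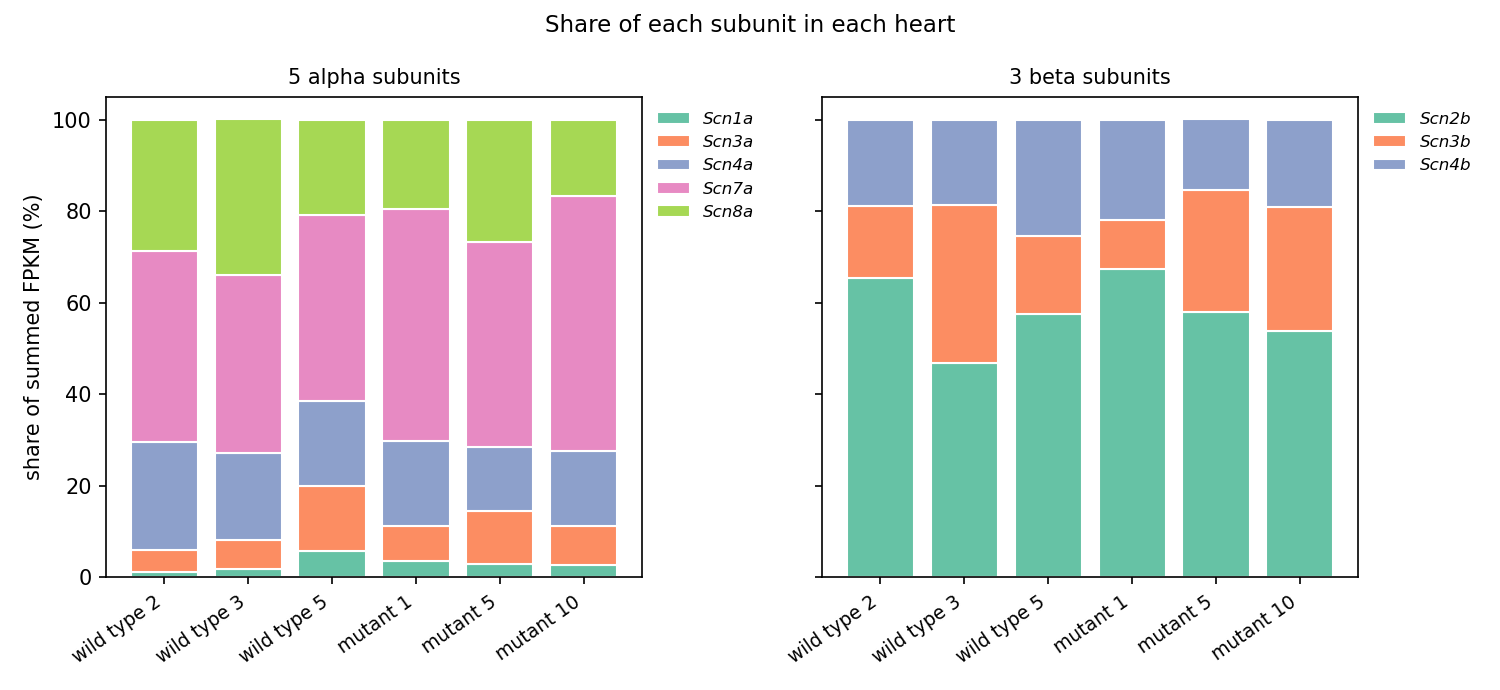
Share of each subunit in the summed FPKM of the 5 alpha genes (left) and the 3 beta genes (right), in percent, one bar per heart. The Scn7a band is 38.8% to 41.7% in the controls and 44.7% to 55.8% in the mutants.

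These shares are within the 8 genes and not of all sodium channel RNA. The 5 alpha genes made up 4% to 7.12% of the FPKM of all alpha subunit rows in each heart, and the other rows were described as a group only. Those 6 further rows of the family, 5 alpha and 1 beta, were matched by symbol, and 4 of them were tested. Of these, 3 were higher and 1 was lower in the mutants, and their median was 0.06 on the log2 scale. This median turned to −0.05 without mutant heart 1 and was 0.11 without mutant heart 5, and it was −0.05 in DESeq2. Of the 4, 0 passed a threshold of 0.05 in edgeR, adjusted or not.

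Genes that act on sodium channels were taken from lists. With the 6 rows above, 71 genes in 7 lists were followed and 65 were tested, of which 40 were higher and 25 lower. In edgeR 0 passed the adjusted threshold, and 8 (12.3%) had an unadjusted p under 0.05, where the background was 5.73%. DESeq2 called 2 at an adjusted p under 0.05, Gja1 and Ptpn3, where the background was 0.690%. In each of the other lists, except that of the 6 further rows, the gene with the smallest p is given.

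Gja1, which encodes the gap junction protein connexin 43 that lies beside sodium channels at the intercalated disc, had 23911, 25274 and 16059 counts in control hearts 2, 3 and 5. It had 30397, 37163 and 33714 counts in mutant hearts 1, 5 and 10. All mutant hearts were above all controls, at 655 ± 63.5 against 410 ± 39.5 CPM (SD, n = 3 per group). Gja1 had a log2 fold change of 0.68 (SE 0.13), with an adjusted p of 0.273 in edgeR and of 0.000654 in DESeq2. Of the 21 scaffold and trafficking partners 20 were tested, and 18 were higher and 2 lower with a median of 0.16. That median was 0.06 without control heart 5, the heart with low values of long genes, and 0.10 with a correction for gene length. Ptpn3, a tyrosine phosphatase of that list and named after its values were seen, had 283, 267 and 208 counts in the same controls and 372, 522 and 379 in the same mutants. Its log2 fold change was 0.78, with an adjusted p of 0.365 in edgeR and 0.0185 in DESeq2.

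Fgf12, an intracellular FGF homologous factor that binds the tail of alpha subunits, had 719, 338 and 594 counts in control hearts 2, 3 and 5 and 279, 224 and 361 in mutant hearts 1, 5 and 10. The groups overlapped after scaling, and the log2 fold change of Fgf12 was −0.93 (SE 0.33, edgeR quasi-likelihood, adjusted p = 0.762). All 4 of these factors were tested, 1 higher and 3 lower. Bace2, a relative of the secretase that cleaves beta subunits, had a log2 fold change of 0.41 (edgeR quasi-likelihood, adjusted p = 0.405), with 42 to 45.1 CPM among controls and 56.4 to 62.7 CPM among mutants. In its list 4 of the 5 proteases were higher.

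Cntn1, which encodes the adhesion molecule contactin, had 168, 121 and 49 counts in control hearts 2, 3 and 5 and 47, 63 and 50 in mutant hearts 1, 5 and 10. Its log2 fold change was −1 (SE 0.37, edgeR quasi-likelihood, adjusted p = 0.797). All 5 adhesion partners tested were lower, with a median of −0.43, where 50.2% of all genes were lower, and 1 of the 5 had an unadjusted p under 0.05, as had 5.73% of all genes. Tbx2, a T-box repressor of the atrioventricular canal, was at 34.7 ± 7.14 CPM in controls and 22.1 ± 3.98 CPM in mutants without overlap (SD, n = 3 per group), a log2 fold change of −0.65 (edgeR quasi-likelihood, adjusted p = 0.638). Among the 14 transcription and splicing regulators 8 were higher and 6 lower. Of those lower, 3 had an unadjusted p under 0.05 in edgeR, where 2.59% of all genes did so in that direction. Of the 15 other sodium transport genes 13 were tested, 6 higher and 7 lower. Slc8a1, the sodium-calcium exchanger, had the smallest p there, with a log2 fold change of 0.31 (edgeR quasi-likelihood, adjusted p = 0.952).

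Other cell types of the heart were also followed through marker lists. Of the conduction system genes 10 were tested, 6 lower and 4 higher, with a median of −0.45 on the log2 scale. Their summed FPKM was 200.0 to 241 in wild type and 195 to 219 in mutant hearts. The 8 smooth muscle genes were 4 higher and 4 lower. Cardiomyocyte genes, with 10 higher and 2 lower, had a median of 0.09. In edgeR 0 genes of these lists passed the adjusted threshold. At an unadjusted p under 0.05, 4 of the 10 conduction system genes were lower and 1 was higher. Among smooth muscle genes 0 were called, and among cardiomyocyte genes 1, which was lower. Over all genes tested the share was 5.73%, with 2.59% lower and 3.14% higher.

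The genes whose pattern over the 6 hearts was most like Scn2b, the subunit with the highest FPKM, were sought among 12925 genes with a mean log2 CPM over 1. They were Sf3b1, a splicing factor (Pearson's r = 0.996 of log2 CPM), Synpo (0.993) and Zeb2 (0.993). For Scn8a, the subunit with the smallest p, they were Rab11fip4 (0.995), Gm20667 (0.977) and Reep2 (0.970), among 12926 genes. With so many genes and 6 hearts, values this high are a description of these libraries. The 3 genes nearest to Scn2b were, like it, lowest in control heart 5, the heart with low values of long genes.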

How the data were processed

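RNA from 6 whole hearts was sequenced with paired reads. After adapter trimming, the authors mapped the reads to mm10 with RNA STAR and, by the methods of the study, assigned those with a unique position to genes of GENCODE M19 with featureCounts, while the submitters' processing notes name HTSeq and DESeq2. The authors deposited raw counts per gene and heart, and FPKM, whose making is not given in the sources used here. Both count tables are identical, as are both FPKM tables, and a table of the mean FPKM of each group was not used. The strand setting of the counting is not given in the sources used here.

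The counts were tested with edgeR 4.0.16 (quasi-likelihood, TMM, filterByExpr with at least 10 counts in 3 hearts and 15 in all, two-sided, no covariates) on all genes, with Benjamini-Hochberg adjustment and a threshold of 0.05. CPM is scaled to the TMM library size. A 95% interval is the fold change ± its standard error times the t quantile. DESeq2 1.42.0 and limma 3.58.1 (R 4.3.3) gave alternatives, as did changes of size factors or filter, robust dispersions, a local regression on gene length (span 0.5) and each heart left out. The tests were tried on simulated counts with 200 changed genes. There edgeR recovered 151 of them with 14 false calls, and DESeq2 recovered 172 with 52 false calls. Of the genes changed by 1 on the log2 scale, edgeR recovered 63% and DESeq2 81%. Levels of different genes were compared on log2(FPKM + 0.1). Deviations of marker lists use log2 CPM with a prior count of 2, those of the subunits use none. Named are all 8 subunits, in each list of channel partners the gene with the smallest p, and the 3 genes most alike in pattern to Scn2b and to Scn8a. For the list of further sodium channel rows that gene is not reported here. Marker genes stand for their list, and those named singly (Myod1, Pax7, Tnnc2, Tnni2, Chrna3, Tubb3, Chat, Prph), like Ptpn3, were picked with their values known. The 8 genes and the lists were chosen with earlier results of these data known.

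Gene positions and lengths are from GENCODE M21 (46488 identifiers matched, 495 not). Intervals cover the spread between hearts, and counting errors assume independent reads, which reads without molecular identifiers are not.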

Additional observations from a re-analysis of the deposited data

How the results depend on the processing

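Of the 8 sodium channel genes, 0 had an adjusted p under 0.05 under any of the settings run, with DESeq2, limma, other size factors and filters, a robust dispersion, the gene length correction or any 1 heart left out. The number of genes called over the whole table was 0 in the main test, 133 with DESeq2, 34 without a filter on low counts, 6 with the gene length correction, 41 with that correction and without control heart 5, and 0 to 44 with each heart left out, where 44 was without control heart 5. Among the 8 genes, 1 (Scn8a) had an unadjusted p under 0.05 with the gene length correction, and 1 with that correction and without control heart 5, and 0 to 1 with each heart left out. Of the partner genes, 2 were called by DESeq2 and 1 with the length correction without control heart 5. The median of the 7 genes tested lay between −0.45 and −0.05.

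Signs near 0 turned as follows. Scn3a, −0.46 to 0.38 with 1 heart left out, was 0.01 with limma-voom, 0.38 without control heart 5 and 0.42 with the length correction without that heart. Scn7a (−0.04 to 0.09) was −0.0034 and −0.01 with limma on log2(FPKM + 1) and log2(FPKM + 0.1), −0.01 with upper quartile factors, −0.11 with the length correction, −0.01 without control heart 2 and −0.04 without mutant heart 10. Scn2b (−0.13 to 0.17) was −0.03 with the length correction, −0.09 with it and without control heart 5, −0.13 without that heart and −0.04 without mutant heart 1. Scn3b (−0.52 to 0.55) was 0.55 without control heart 3 and 0.12 without mutant heart 1. The cause was not tested. The signs of Scn4a, Scn8a and Scn4b did not turn, and their values on log2(FPKM + 1) are smaller because the added 1 exceeds their FPKM. Of 7 neighbouring pairs in the order by FPKM, 5 kept their order with merged exon length and 5 with the longest transcript, both chosen after seeing the data, and 6 to 7 with each heart left out (6 without control heart 3). No paired analysis was possible because the groups share 1 replicate number, 5, and fewer than 2 pairs give no block. Scn1a, which had a value only where its counts passed the filter or none was used, ran from −0.55 to −0.06 with 1 heart left out. The counting error of Scn1a was 34% of its mean count.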
